A study of Rattus norvegicus with 8 samples.

Results

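The voltage-gated calcium channel alpha-1 subunits are the pore-forming proteins of the channels that let calcium into neurons when the membrane depolarises. The genes described here are Cacna1a, Cacna1b, Cacna1c, Cacna1d, Cacna1e, Cacna1g, Cacna1h and Cacna1i. They were taken as the protein-coding rows of the deposited count table that carry these symbols, 8 of 34298 genes, and each symbol had 1 row. All 8 passed the filter on low counts that left 16573 genes to test. The libraries hold bulk mRNA of the orbitofrontal cortex of outbred Sprague-Dawley rats, all adult males that arrived at 8 weeks of age. Each rat had received 5 ng of an siRNA in 1 µl with the JetPEI transfection reagent into this region, and tissue was taken 7 days later. In 4 rats the siRNA matched the junction where the circular RNA circNrxn3 is closed, a circle made from neurexin 3 exons (knockdown replicates 1, 2, 3 and 4), and in 4 it was a scrambled control (scrambled replicates 1, 3, 4 and 5). Infusion, transfection reagent and strain were thus shared by both groups. The share of cells that took up siRNA was not analysed here.

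An alpha-1 protein has 4 homologous repeats around a calcium-selective pore and sets the voltage range, kinetics and pharmacology of its channel. High-voltage-activated channels fall into the L-type (Cav1) class, which sits largely on neuronal cell bodies and dendrites and couples activity to gene expression, and the P/Q-, N- and R-type (Cav2) class, which includes the main triggers of transmitter release at nerve terminals. These channels assemble with auxiliary beta and alpha-2-delta subunits that govern their trafficking to the membrane. Low-voltage-activated T-type (Cav3) channels open near the resting potential, shape burst firing and rhythmic activity, and can work without auxiliary subunits. Alpha-neurexins, the presynaptic adhesion proteins of which Nrxn3 encodes 1 set, are known to promote the function of presynaptic Cav2 channels.

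Total counts per library ran from 28219271 to 35221782 in the knockdown and from 27589883 to 35191810 in the scrambled group. The linear host gene Nrxn3 had 82 to 430 counts in knockdown and 114 to 344 in scrambled libraries (log2 fold change 0.20, standard error 0.48, adjusted p = 0.948, edgeR). Libraries selected for poly-A tails hold mainly linear mRNA, so this does not check the level of the circle. Markers of cortical excitatory neurons were abundant in both groups, Slc17a7 at 2066 CPM in knockdown and 2254 CPM in scrambled libraries, whereas Slc17a6, the vesicular glutamate transporter typical of thalamus, averaged 10.4 CPM in knockdown and 8.43 CPM in scrambled libraries. CPM are counts scaled to a common library size with TMM factors. In bulk tissue, fewer cells of a type and less RNA per cell cannot be told apart.

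Per length of gene model, the P/Q-type gene Cacna1a was the most abundant of the 8 and the R-type gene Cacna1e the least. The deposited FPKM, which divide counts by gene length, averaged 25.6 ± 1.60 for Cacna1a, 14.4 ± 1.40 for Cacna1g, 10.8 ± 1.09 for Cacna1b and 7.75 ± 1.02 for Cacna1h (SD over all 8 libraries). They averaged 4.03 ± 1.20 for Cacna1i, 2.83 ± 0.59 for Cacna1d, 2.28 ± 0.33 for Cacna1c and 0.74 ± 0.26 for Cacna1e. Cacna1a lay above Cacna1g, Cacna1h above Cacna1i, and Cacna1c above Cacna1e in every library with no overlap of ranges. Neighbours whose ranges overlapped were Cacna1g and Cacna1b (Cacna1g higher in 7 of 8 libraries), Cacna1b and Cacna1h (8 of 8), Cacna1i and Cacna1d (6 of 8), and Cacna1d and Cacna1c (8 of 8). The retinal L-type gene Cacna1f and the muscle L-type gene Cacna1s, the remaining alpha-1 genes, averaged only 0.312 and 0.29 FPKM. Gene models of the 8 genes span 6860 to 9810 bp, against a median of 2215 bp over tested genes, and whether each model covers all exons was not checked.

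**Figure D1:**
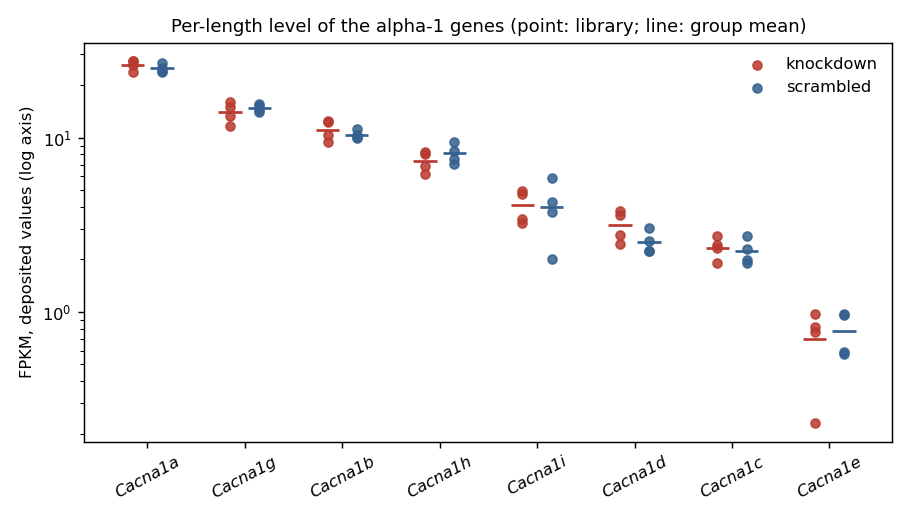
Deposited FPKM of the 8 alpha-1 genes on a log axis, ordered by mean level, with knockdown libraries in red and scrambled libraries in blue; points are libraries and lines are group means. Levels run from 23.6 to 27.5 FPKM for Cacna1a down to 0.23 to 0.98 FPKM for Cacna1e, and the groups overlap for each gene.

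By class, Cav2 genes made up 55.1 ± 2.67% of the summed FPKM of the 8 genes in knockdown and 53.4 ± 1.88% in scrambled libraries (SD, n = 4 each). Cav3 genes made up 36.9 ± 3.88% in knockdown and 39.6 ± 2.53% in scrambled libraries, and Cav1 genes 7.97 ± 1.22% in knockdown and 6.97 ± 0.97% in scrambled libraries. The sum itself was 68.9 ± 5.38 FPKM in knockdown and 67.8 ± 3.68 FPKM in scrambled libraries. Each of these differences between groups was smaller than the SD within the knockdown group. Those of the Cav3 and Cav1 shares were slightly larger than the SD within the scrambled group.

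None of the 8 genes passed the test between the groups. With edgeR's quasi-likelihood test, 0 of them passed after Benjamini-Hochberg adjustment, 0 had an unadjusted p under 0.05, and their adjusted p ran from 0.833 to 0.983. Over all 16573 tested genes 0% passed, and 5.59% had an unadjusted p under 0.05, 2.38% higher and 3.2% lower in knockdown libraries. DESeq2 and limma-voom also called 0 of the 8, with an unadjusted p of 0.0494 for Cacna1d in DESeq2. Log2 fold changes of knockdown over scrambled were above 0 for 5 genes and below 0 for 3, with a median of 0.06, against 51.3% above 0 and a median of 0.0066 over all tested genes. Knockdown and scrambled CPM overlapped for all 8 genes, whereas 3.48% of tested genes had no overlap.

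**Figure D2:**
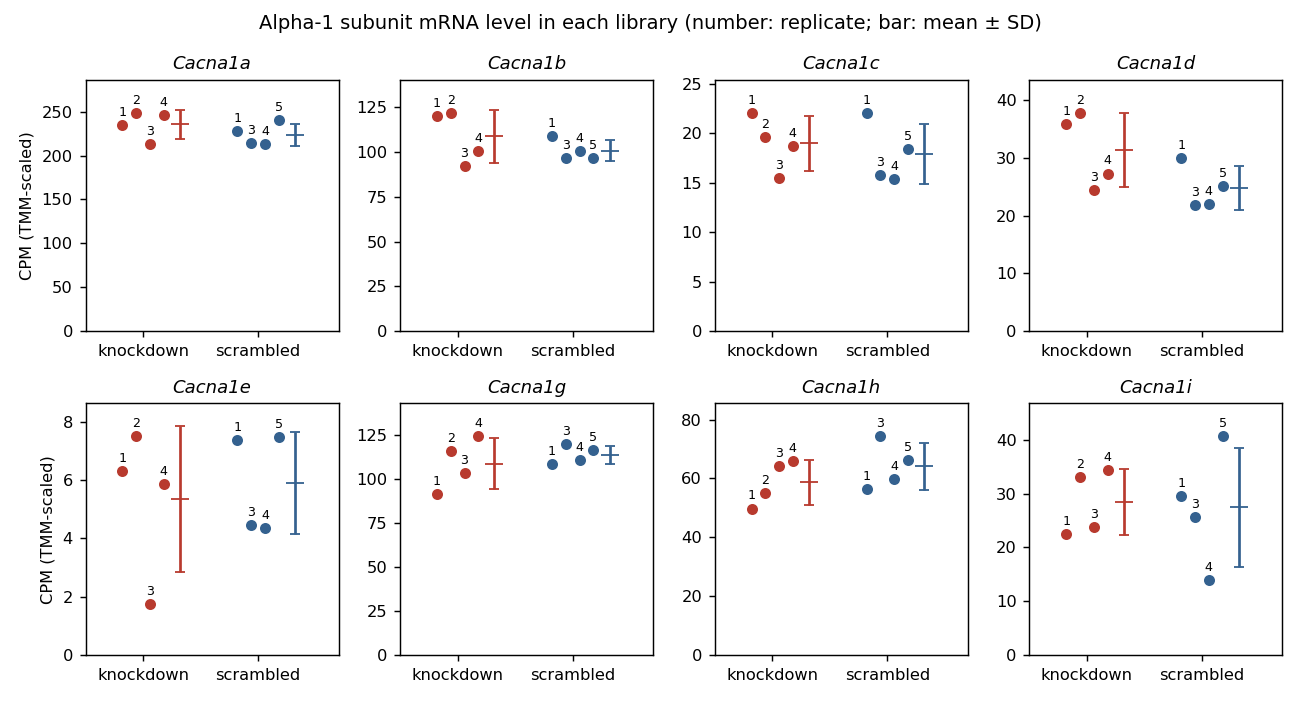
CPM of each alpha-1 gene in the 4 knockdown (red) and 4 scrambled (blue) libraries, numbered by replicate, with the group mean and SD at the right of each set. Cacna1d has its 2 highest values in knockdown replicates 1 and 2, Cacna1e its lowest in knockdown replicate 3, and Cacna1i its highest and lowest in scrambled replicates 5 and 4.

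Among the presynaptic Cav2 genes, Cacna1a and Cacna1b were the most steadily measured. Cacna1a, the pore of P/Q-type channels that trigger fast transmitter release (ENSRNOG00000052707, rn6 chromosome 19, 25526751 to 25749550, plus strand), was at 235, 249, 213 and 246 CPM in knockdown replicates 1 to 4, against 228, 214, 213 and 240.2 CPM in replicates 1, 3, 4 and 5 of the scrambled group. The log2 fold change of knockdown over scrambled was 0.08 (standard error 0.07, 95% interval −0.09 to 0.24). Knockdown replicate 3 was the lowest of the 8 libraries and the other knockdown libraries stood above the median of the 8. That interval covers linear folds from 0.94 to 1.18, the narrowest of the family, and the biological coefficient of variation of Cacna1a was 0.09, against a median of 0.21 over tested genes.

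Cacna1b, the pore of N-type channels, which also drive transmitter release (ENSRNOG00000004560, chromosome 3, 1740024 to 1924827, minus strand), was at 120.0, 122, 92.2 and 101 CPM in knockdown replicates 1 to 4, against 109, 97.0, 100.4 and 96.9 CPM in replicates 1, 3, 4 and 5 of the scrambled group. Knockdown replicates 1 and 2 lay above every scrambled library and knockdown replicate 3 below every one. The log2 fold change was 0.11 (standard error 0.10, interval −0.11 to 0.33).

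Cacna1e, the pore of R-type channels (ENSRNOG00000002863, chromosome 13, 71906702 to 72367980, minus strand), was the least abundant and most variable gene. It had 233, 230, 49 and 186 counts in knockdown replicates 1 to 4 and 206, 149, 146 and 220 counts in scrambled replicates 1, 3, 4 and 5. Scaled for library size, 1.76 CPM were measured in knockdown replicate 3 and 4.35 to 7.51 CPM in the other libraries. The exact 95% Poisson interval of the 49 counts, 36.3 to 64.8, lies below the lowest count of the other libraries; such intervals cover counting error only. The log2 fold change was −0.14 (standard error 0.39) and turned to 0.14 without knockdown replicate 3, so its direction rests on that library.

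Cacna1d, an L-type gene, had the largest difference of the family. It encodes Cav1.3, which opens at more negative voltages than Cav1.2 and supports pacemaking (ENSRNOG00000013147, chromosome 16, 6112150 to 6405117, minus strand). It was at 35.8, 37.8, 24.5 and 27.3 CPM in knockdown replicates 1 to 4, against 30.02, 21.8, 22.0 and 25.05 CPM in replicates 1, 3, 4 and 5 of the scrambled group. Knockdown replicates 1 and 2 exceeded every scrambled library, while knockdown replicates 3 and 4 fell within the scrambled range. The log2 fold change was 0.34 (standard error 0.16, interval −0.0085 to 0.69, unadjusted p = 0.0548, adjusted p = 0.833, edgeR), at rank 1029 by p among tested genes. It was 0.24 without knockdown replicate 2 and 0.45 without scrambled replicate 1, with adjusted p from 0.388 to 1.000 over its 21 alternative settings.

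Cacna1c, the other L-type gene, encodes Cav1.2, the main L-type pore of forebrain neurons and also of vascular smooth muscle (ENSRNOG00000007090, chromosome 4, 150641066 to 150829913, minus strand). It was at 22.1, 19.7, 15.4 and 18.7 CPM in knockdown replicates 1 to 4, against 22.0, 15.8, 15.3 and 18.4 CPM in replicates 1, 3, 4 and 5 of the scrambled group. Both groups spread over nearly the same range, with replicate 1 highest in each. Its log2 fold change was 0.09 (standard error 0.15, interval −0.24 to 0.41). Summed CPM of 5 mural cell markers (Acta2, Myh11, Tagln, Pdgfrb and Rgs5, all 5 with fold changes below 0 and none past the test) overlapped too, at 77.8 to 119 in knockdown and 89.6 to 126 in scrambled libraries, and their part in the Cacna1c level was not tested.

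The FPKM ratio of Cacna1d to Cacna1c was 1.32, 1.57, 1.29 and 1.19 in knockdown replicates 1 to 4, against 1.11, 1.12, 1.17 and 1.11 in scrambled replicates 1, 3, 4 and 5. This ratio was singled out after its values were seen, as the 1 of 28 pairwise ratios within the family whose groups did not overlap, a share near the 3.48% of tested genes without overlap. No test is given for it, and it is not a result about the L-type genes. The nearest values, 1.19 in knockdown replicate 4 and 1.17 in scrambled replicate 4, differ by less than the SD within the knockdown group (0.16), and the SD in scrambled libraries was 0.03.

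The RefSeq promoter table of the GRCr8 build held 5 of the 8 genes (Cacna1a to Cacna1e), among which the L-type genes were farthest apart in CpG content. The 250 bases before the annotated start of each are shown 5′ to 3′ on the gene's strand, because Cacna1d had the largest fold change of the family and Cacna1c is the other L-type gene; capitals mark GC boxes (GGGCGG or its reverse complement, overlaps allowed). Cacna1d lies at chr16:5527550-5527799 and Cacna1c at chr4:154051749-154051998, both on the minus strand.
Cacna1d: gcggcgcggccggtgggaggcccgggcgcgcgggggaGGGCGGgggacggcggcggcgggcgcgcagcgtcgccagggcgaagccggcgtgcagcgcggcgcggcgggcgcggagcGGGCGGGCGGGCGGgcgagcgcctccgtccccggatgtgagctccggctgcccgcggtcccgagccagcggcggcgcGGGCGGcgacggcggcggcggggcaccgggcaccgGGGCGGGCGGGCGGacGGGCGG
Cacna1c: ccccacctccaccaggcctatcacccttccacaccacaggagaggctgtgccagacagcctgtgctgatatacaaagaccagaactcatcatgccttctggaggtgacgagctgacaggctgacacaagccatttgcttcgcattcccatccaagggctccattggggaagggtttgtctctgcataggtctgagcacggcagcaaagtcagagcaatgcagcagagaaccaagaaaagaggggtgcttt
The Cacna1d sequence is 88.8% G and C with 56 CpG and 9 GC boxes, while that of Cacna1c is 54.4% G and C with 3 CpG and 0 GC boxes. Over 33465 promoters of the same length the medians were 51.2% and 5 CpG, and 30.5% held a GC box. CpG counts of Cacna1a, Cacna1b and Cacna1e were 34, 28 and 6. TATAAA, TGACGTCA (the cAMP response element) and CACGTG (an E-box), searched on both strands, were in none of the 5 windows, against 12.9%, 1.59% and 5.59% of all promoters. These are matches of letters in 1 annotated start per gene, and which start was used in this tissue was not measured.

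The T-type genes spanned 4.03 to 14.4 FPKM on average, on either side of the N-type gene, and none passed the test. Cacna1g, which encodes Cav3.1 (ENSRNOG00000060528, chromosome 10, 82129506 to 82197848, minus strand), was at 91.4, 116, 103 and 124 CPM in knockdown replicates 1 to 4, against 109, 119.8, 111 and 116 CPM in replicates 1, 3, 4 and 5 of the scrambled group. Knockdown replicates 1 and 3 lay below the scrambled range and knockdown replicate 4 above it. The log2 fold change was −0.07 (standard error 0.10, interval −0.28 to 0.15), and 0.0078 without knockdown replicate 1.

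Cacna1h, which encodes the nickel-sensitive Cav3.2 (ENSRNOG00000033893, chromosome 10, 14730941 to 14788617, minus strand), was at 49.8, 55.1, 64.2 and 65.8 CPM in knockdown replicates 1 to 4, against 56.4, 74.4, 59.7 and 66.4 CPM in replicates 1, 3, 4 and 5 of the scrambled group. Knockdown replicates 1 and 2 were the lowest of the 8 libraries, the reverse of their place for Cacna1d and Cacna1b. Its log2 fold change was −0.13 (standard error 0.11, interval −0.38 to 0.12). The gene model overlaps the end of Tpsg1 on the opposite strand, a gene with a median of 16 counts per library, against 1576 to 2494 counts for Cacna1h.

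Cacna1i, which encodes the slowly inactivating Cav3.3 (ENSRNOG00000060407, chromosome 7, 121511097 to 121619194, plus strand), was at 22.4, 33.0, 23.8 and 34.3 CPM in knockdown replicates 1 to 4, against 29.6, 25.7, 13.9 and 40.6 CPM in replicates 1, 3, 4 and 5 of the scrambled group. The scrambled libraries held both the highest and the lowest value, so the knockdown values lay inside their range. A log2 fold change of 0.05 (standard error 0.30) turned to −0.18 without scrambled replicate 4, −0.03 without knockdown replicate 2 and −0.05 without knockdown replicate 4. Its coefficient of variation over the 8 libraries was 29.7%, and counting error alone would give 3.40% at this depth.

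**Figure D3:**
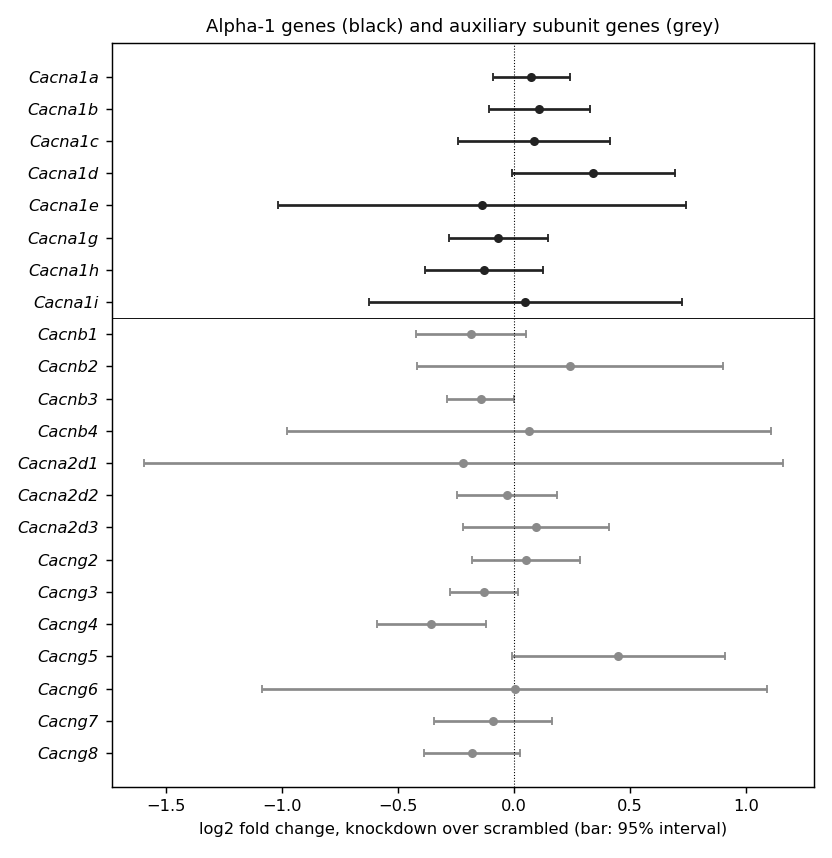
Log2 fold changes of knockdown over scrambled with 95% intervals for the 8 alpha-1 genes (black) and the 14 tested auxiliary subunit genes (grey). Every alpha-1 interval includes 0, and among the auxiliary genes that of Cacng4 alone does not.

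Across libraries the high-voltage-activated genes varied together and Cacna1h varied against them. Over the 8 libraries, log2 CPM correlated positively in all 10 pairs of Cacna1a to Cacna1e (Pearson's r from 0.52 to 0.91) and negatively in all 5 pairs of these genes with Cacna1h (r from −0.83 to −0.33). The T-type gene Cacna1i was also positive with each of Cacna1a to Cacna1e, from 0.07 with Cacna1b to 0.71 with Cacna1a. Of all 28 pairs 20 were positive, and the share among pairs of other genes was not computed. The closest pair, Cacna1b and Cacna1d, had r = 0.91 and Spearman's rho = 0.81 (exact permutation p = 0.00345 and 0.0218, adjusted over the 28 pairs 0.0946 and 0.161). Without knockdown replicates 1 and 2, the libraries farthest from the median of Cacna1b, r was 0.63, and with group means removed it was 0.93. Cacna1b and Cacna1h had r = −0.83 and rho = −0.76 (exact permutation p = 0.00843 and 0.0368, adjusted 0.0946 and 0.161), and r = −0.63 without the same libraries. No pair passed after adjustment, and all pairs share the same libraries and scaling. Within the Cav3 class, Cacna1g and Cacna1h had r = 0.70 and rho = 0.71 (exact permutation p = 0.0484 and 0.0576, adjusted p = 0.15 and 0.161).

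**Figure D4:**
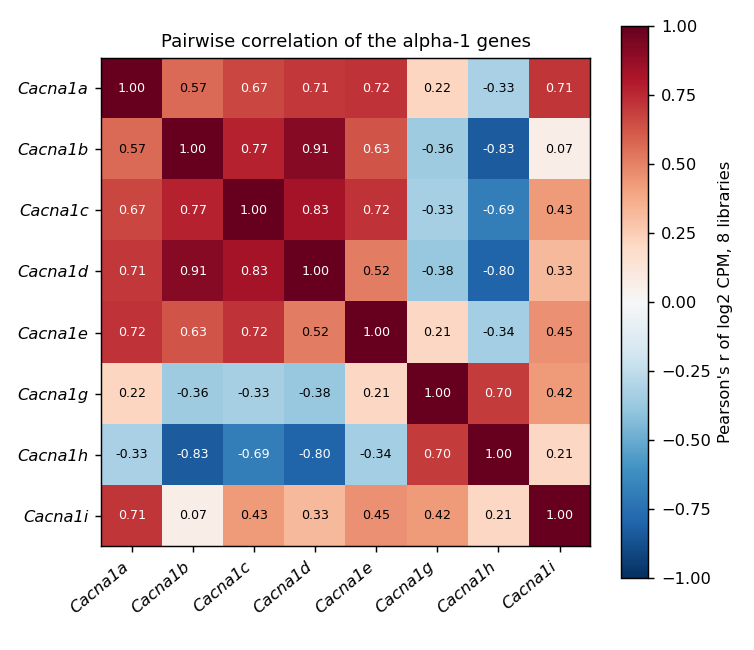
Pearson's r between log2 CPM of each pair of alpha-1 genes over the 8 libraries; red is positive and blue negative. The 5 high-voltage-activated genes form a positive block, and Cacna1h is negative with each of them, down to −0.83 with Cacna1b. Cacna1i is positive with each of the same 5 genes, up to 0.71 with Cacna1a.

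The libraries also differed in the balance of long and short transcripts, and several alpha-1 genes moved with it. A length score was taken as the mean deviation of log2 CPM over genes of 3486 bp and above minus that over genes of 1372 bp and below, the upper and lower quartiles of length. All 8 alpha-1 genes (6860 to 9810 bp) are among the long genes of this score, so a positive relation to it is partly built in. How many other long genes follow the score as closely was not counted. It was 0.05 ± 0.09 in knockdown and −0.05 ± 0.09 in scrambled libraries (SD, n = 4 each, 2-sided exact permutation p = 0.2, smallest possible p 0.0286). Among the 8 genes Cacna1d followed the score most closely, with r = 0.95 and rho = 0.98 (exact permutation p = 7.44e-05 and 0.000397, adjusted over the 8 genes 0.000595 and 0.00317). Without knockdown replicate 2 and scrambled replicate 4, the libraries farthest from the median score, r was 0.97, and with group means removed 0.94. Cacna1c had r = 0.84 and rho = 0.90 (exact permutation p = 0.00938 and 0.00456, adjusted 0.0375 and 0.0183), and r = 0.98 without those libraries. For Cacna1b r was 0.81 and rho 0.79 (exact permutation p = 0.0144 and 0.0279, adjusted 0.0383 and 0.0733). For Cacna1a r was 0.77 and rho 0.74 (exact permutation p = 0.0288 and 0.0458, adjusted 0.0576 and 0.0733). For Cacna1e r was 0.56 and rho 0.76 (exact permutation p = 0.15 and 0.0368, adjusted 0.171 and 0.0733). Among the T-type genes the sign of the relation varied. Cacna1i had r = 0.58 and rho = 0.36 (exact permutation p = 0.13 and 0.389, adjusted 0.171 and 0.445), with r = −0.04 without knockdown replicate 2 and scrambled replicate 4. Cacna1h had r = −0.61 and rho = −0.67 (exact permutation p = 0.109 and 0.0831, adjusted 0.171 and 0.111) and Cacna1g r = −0.19 and rho = −0.21 (exact permutation p = 0.647 and 0.619, both also after adjustment).

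With each library's trend on gene length removed, the log2 fold change of Cacna1d was 0.26 (unadjusted p = 0.026, adjusted p = 0.962, edgeR) and that of Cacna1h −0.20. Those of Cacna1a, Cacna1b and Cacna1c were −5.12e-05, 0.03 and 0.01. The median over the 8 genes was then −0.0033, against −0.03 over all tested genes.

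**Figure D5:**
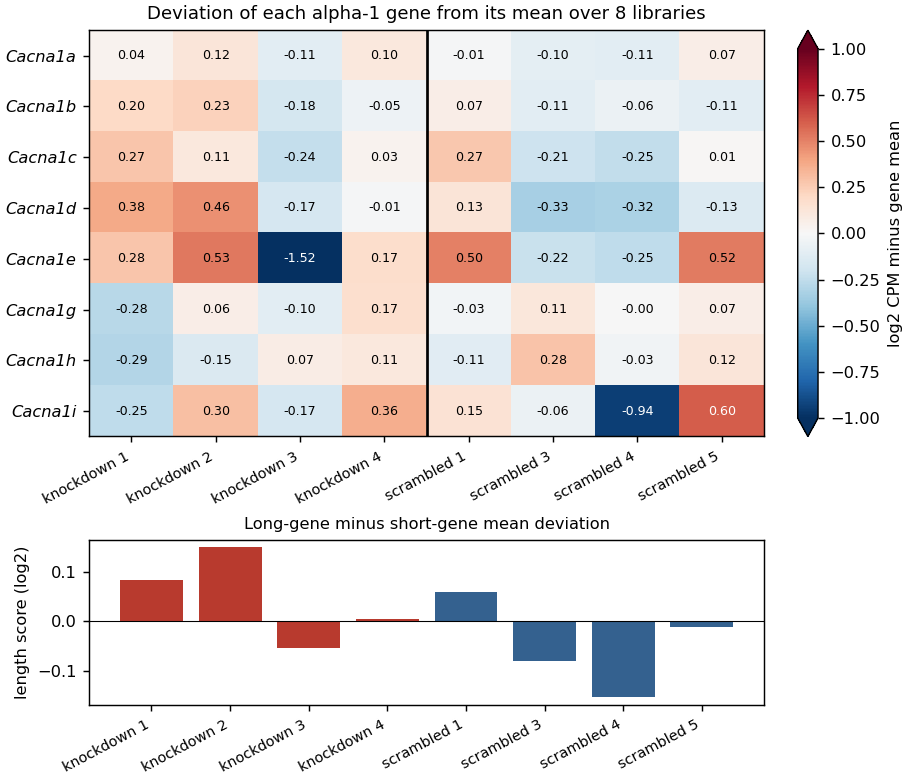
Upper panel, log2 CPM of each alpha-1 gene in each library minus its mean over the 8 libraries, with knockdown libraries left of the line; the colour scale ends at 1 on either side. Lower panel, the length score of each library, highest in knockdown replicate 2 (0.15) and lowest in scrambled replicate 4 (−0.15), next to which the row of Cacna1d shows the same order of high and low libraries most closely.

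None of the auxiliary subunit genes passed the test, and their log2 fold changes lay on both sides of 0. Of the 16 genes listed, 14 were tested, with 6 log2 fold changes above 0, 8 below 0 and a median of −0.06. An unadjusted p under 0.05 was found for 1 of the 14 (edgeR). Over all tested genes 51.3% of log2 fold changes were above 0, the median was 0.0066 and 5.59% had such a p. The median over the 14 genes was −0.11 with the length trend removed and −0.0028 with the replicate block (7 above 0 and 7 below). With the block, 5 of the 14 had an unadjusted p under 0.05 (edgeR), against 1674 of 16573 genes over the whole table. That fit rests on replicate numbers 1, 3 and 4, which occur in both groups. Leaving out single libraries gave medians from −0.14 (without knockdown replicate 4) to −0.01 (without scrambled replicate 5). The summed CPM of the tested genes was 1428, 1551, 1623 and 1626 in knockdown replicates 1 to 4, against 1665, 1714, 1679 and 1717 in scrambled replicates 1, 3, 4 and 5. All 4 knockdown sums lay below all 4 scrambled sums. Many gene and marker lists were summed, and the sums of all others overlapped between the groups. How often sums of unrelated gene sets separate was not computed. The auxiliary sum pools beta, alpha-2-delta and gamma subunit genes, and several gamma genes encode AMPA receptor auxiliary proteins. It is thus not a measure of calcium channel subunits alone. Fold changes of the pooled genes went in both directions, and the sum was not tested. The sum is mostly that of a few abundant genes: Cacnb1 averaged 293 CPM in knockdown and 333 CPM in scrambled libraries, and Cacnb3, Cacng3, Cacng4, Cacng7 and Cacng8 also had lower means in knockdown libraries, while Cacnb2, Cacnb4, Cacna2d3, Cacng2, Cacng5 and Cacng6 had fold changes above 0. By comparison, the summed CPM of the 8 alpha-1 genes overlapped, at 538 to 640.1 in knockdown and 539.7 to 611 in scrambled libraries. Knockdown and scrambled CPM did not overlap in 3 of the 14 genes (Cacnb3, Cacng3 and Cacng4), against 3.48% of tested genes.

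Cacng4, listed as a gamma subunit gene, encodes an AMPA receptor auxiliary protein, as do several other Cacng genes of this list. Cacng4 was at 50.9, 58.7, 61.9 and 59.8 CPM in knockdown replicates 1 to 4. In scrambled replicates 1, 3, 4 and 5 it was at 64.5, 85.2, 66.3 and 79.7 CPM. Its log2 fold change was −0.36 (standard error 0.11, unadjusted p = 0.00699, adjusted p = 0.833, edgeR). Cacnb3, the most abundant beta subunit gene per length (146 FPKM on average), was at 335, 356, 355 and 363 CPM in knockdown replicates 1 to 4, against 406, 398, 365 and 388 CPM in replicates 1, 3, 4 and 5 of the scrambled group. The nearest values of the groups, 363 and 365 CPM, almost touched, and the log2 fold change was −0.14 (standard error 0.06, adjusted p = 0.833, edgeR). The other beta subunit genes had log2 fold changes of −0.19 (Cacnb1), 0.24 (Cacnb2) and 0.06 (Cacnb4). Among alpha-2-delta genes, whose products carry the channel to the membrane and bind gabapentin in the case of Cacna2d1 and Cacna2d2, they were −0.22 (Cacna2d1), −0.03 (Cacna2d2) and 0.09 (Cacna2d3), with Cacna2d4 too low to test.

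Other genes of channel regulation and calcium handling did not pass either. For reference, 51.3% of all tested genes had a log2 fold change above 0. An unadjusted p under 0.05 was found for 5.59% of all tested genes (edgeR), and 3.48% had no overlap between groups. Of 29 modulators and active zone tethers, 27 were tested, and their log2 fold changes, 16 above 0 and 11 below, had a median of 0.07. The smallest p values were those of the SNARE protein Snap25 (0.17), the G protein beta subunits Gnb5 (0.17) and Gnb2 (−0.20), and the active zone scaffold Bsn (0.10), all log2 fold changes. Of 9 genes of calcium-activated potassium channels 7 were tested, 3 above 0 and 4 below with a median of −0.04, where the SK-type channel Kcnn1 had 0.27 (unadjusted p = 0.0488, adjusted p = 0.833, edgeR), Kcnn3 −0.55, Kcnn4 −0.85 and Kcnmb2 0.43. Of 21 genes for calcium stores, entry and extrusion, 20 were tested, with 11 above 0, 9 below 0 and a median of 0.05. Atp2a2, the endoplasmic reticulum calcium pump, averaged 834 ± 35.5 CPM in knockdown and 740.2 ± 44.6 CPM in scrambled libraries (SD, n = 4 each) without overlap, a log2 fold change of 0.17 (unadjusted p = 0.0376, adjusted p = 0.833, edgeR). The mitochondrial uniporter Mcu had 0.46, the pump Atp2a3 −0.56 and the ryanodine receptor Ryr1 −0.34.

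Summed markers of each cell type overlapped between the groups, and no marker passed the test. The summed CPM of 5 excitatory neuron markers was 2187 to 2776 in knockdown and 2568 to 2977 in scrambled libraries. Most of this sum is Slc17a7, which was lower on average in knockdown libraries. Of the 5 log2 fold changes 4 were above 0 and 1 below, with a median of 0.10. The summed CPM of 6 interneuron markers was 1082 to 1267 in knockdown and 1103 to 1340 in scrambled libraries. The 6 striatal neuron markers summed to 315 to 392 CPM in knockdown and 319 to 414 CPM in scrambled libraries, and the 5 thalamic markers to 28.5 to 37.1 CPM in knockdown and 27.9 to 36.3 CPM in scrambled libraries. The 6 oligodendrocyte markers ranged more widely, at 2465 to 4015 CPM in knockdown and 1931 to 4588 CPM in scrambled libraries, with all 6 fold changes above 0. The 5 astrocyte markers summed to 967 to 1313 CPM in knockdown and 1165 to 1536 CPM in scrambled libraries. Of their log2 fold changes 4 were below 0 and 1 above, and 1 marker was lower at an unadjusted p under 0.05 (edgeR). The 6 microglia markers summed to 206 to 369 CPM in knockdown and 218 to 384 CPM in scrambled libraries. The red blood cell genes Hbb and Alas2 summed to 84.3 to 140.2 CPM in knockdown and 129 to 467 CPM in scrambled libraries, with log2 fold changes of −1.14 and −1.23 (unadjusted p = 0.0187 and 0.027, adjusted p = 0.833 for both, edgeR). Of the endothelial markers, Cldn5 is listed at 0 counts in all 8 libraries, and Flt1 and Tek summed to 39.2 to 54.8 CPM in knockdown and 31.2 to 47.0 CPM in scrambled libraries. Their part in the values of the alpha-1 genes was not tested.

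For each alpha-1 gene, the gene outside the family with the most similar log2 CPM over the 8 libraries was sought among 13003 protein-coding genes with a symbol and a mean of at least 1 CPM. Cacna1d was followed most closely by Cdyl (r = 0.99), a chromodomain protein, Cacna1c by Napb (0.98), Cacna1b by Tcaim (0.98) and Cacna1a by Chd8 (0.98), a chromatin remodeller. Cacna1e was followed by the histone deacetylase gene Hdac9 (0.99), Cacna1h by MAST1 (0.99), Cacna1g by the protease gene Bmp1 (0.97) and Cacna1i by Hhipl1 (0.96). The number of genes with r above 0.9 was 507 for Cacna1c and 461 for Cacna1d, against 18 for Cacna1i, 23 for Cacna1a and 34 for Cacna1g. With 8 libraries and this many candidates such values are a description of the ranking only.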

How the data were processed

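Per the labels' protocols, mRNA was selected with poly-T beads and made into directional (dUTP) libraries. The deposited count table holds raw read counts per gene with rn6 gene models, and the deposited FPKM divide these by gene length and by a library total; counts divided by FPKM and length gave 1 total per sample, proportional to median-of-ratios size factors. The tools listed in the submitters' processing notes are featureCounts 1.5.0-p3, HISAT2 2.0.5, fastp and StringTie 1.3.3b. No source used here says whether reads were counted by strand. Columns were matched to samples by title. Pairs of libraries of 1 group differed by more than sampling noise (chi-square over its degrees of freedom 23.2 to 47.4, genes with at least 20 counts), so no library was counted as a duplicate. Samples are biological replicates per the labels, so a p-value reflects the spread among these rats.

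The fit used edgeR 4.0.16 in R 4.3.3 (filterByExpr with a minimum count of 10, TMM factors, robust quasi-likelihood F test, no covariates), with p-values 2-sided and adjusted by Benjamini-Hochberg over 16573 genes at 0.05. Standard errors were obtained from the log2 fold change and the F statistic, and 95% intervals from the matching t quantile. Log2 CPM used a prior count of 2. Alternatives were other scalings, filters, DESeq2 1.42.0, limma 3.58.1 (voom, and log2 FPKM), a block on replicate number, removal of a length trend (spline with 5 degrees of freedom) and leaving out libraries. The fits were also run on simulated counts, drawn independently for each gene, as a check of the code. No statement on the size of change detectable with 4 rats per group is drawn from that check. The family and the gene lists were chosen with earlier results of these data known. Of the other lists, the 4 tested genes with the smallest p are named, any auxiliary subunit may be named, and 1 most similar gene is named per family member. Itpr2, Pecam1 and Hba-a2 were not matched, and Tspoap1 was matched by a RefSeq (GRCr8) synonym.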

Additional observations from a re-analysis of the deposited data

How the results depend on the processing

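Of 168 values of the 8 log2 fold changes under 21 alternative settings, 160 kept their direction, 8 reversed and 0 passed the threshold (adjusted p 0.388 to 1.000). With the length trend removed Cacna1a was at −5.12e-05 and Cacna1i at −0.0066, and without scrambled replicates 3 and 4 and knockdown replicate 3 together Cacna1i was at −0.23. Leaving out single libraries gave −0.18 to 0.30 for Cacna1i, −0.34 to 0.14 for Cacna1e and −0.14 to 0.0078 for Cacna1g; Cacna1d stayed at 0.24 to 0.45, Cacna1h at −0.19 to −0.06, Cacna1a at 0.05 to 0.11, Cacna1b at 0.05 to 0.17 and Cacna1c at 0.0034 to 0.20. The cause was not tested. Genes called over the whole table numbered 0 in the edgeR fit of all libraries, 8 with DESeq2, 3 without those 3 libraries, and 0 to 1 when single libraries were left out (1 each without knockdown replicate 2 and knockdown replicate 3); none of these was an alpha-1 gene. The length score difference was 0.06 to 0.13 without single libraries.

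Replicate numbers 1, 3 and 4 occur in both groups. Deviations of same-numbered libraries correlated at 0.46, 0.39 and 0.09. For knockdown replicates 1, 3 and 4, the scrambled library of the same number had the highest correlation. Differently numbered pairs ran from −0.53 to 0.34. Scrambled replicate 4 correlated better with knockdown replicate 3 (0.31) than with its own number. The labels do not say whether the numbers pair animals. The main fit left them unpaired, and a factor shared by number was not tested. With the replicate block 0 genes were called and Cacna1d had a log2 fold change of 0.24 (adjusted p = 0.388, edgeR). Knockdown replicate 2 and scrambled replicate 5 have no library of the same number in the other group. The group difference in the block fit therefore rests on numbers 1, 3 and 4 alone. In that fit 1674 of 16573 genes had an unadjusted p under 0.05, against 926 in the main fit (edgeR).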
